A study of Macaca mulatta with 22 samples.

Results

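The genes described here build and anchor the contacts between cells. They are the cadherins, protocadherins, catenins, claudins, connexins, desmosomal cadherins and plakophilins, with desmoplakin (DSP), occludin (OCLN) and the tight junction proteins TJP1 and TJP3, as far as the array names them under a single gene symbol. The rule uses the symbol alone and no measured value, and the endothelial genes CDH5 and CLDN5 were left out. The rule found 85 genes among the 14132 with a single symbol on the array. They comprise 20 protocadherins, 19 cadherins, 16 claudins, 13 connexins, 7 desmosomal genes, 4 catenins, 3 plakophilins and 3 genes of the group of TJP1, TJP3 and OCLN. Several well known junction genes of the ovary, GJA1, GJB2, CDH2, CTNNB1, CLDN11, PKP2, JAM2 and JAM3, had no probe set under a single symbol and were not analysed here.

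Cadherins hold neighbouring cells together through their outer domains, and the catenins tie their tails to actin. Tight junctions, made of claudins and occludin and anchored by TJP proteins, seal the space between cells, and gap junctions, made of connexins, let small molecules pass from cell to cell. Desmosomes link cells to intermediate filaments through desmogleins, desmocollins, plakophilins and DSP. In the follicle the granulosa cells and the oocyte are coupled by gap junctions, and after the ovulatory stimulus the follicle wall loosens, breaks and is invaded by vessels.

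RNA came from single follicles of female rhesus macaques (Macaca mulatta) in controlled ovulation, 1 follicle per array. All animals had received a GnRH antagonist, Acyline, and 30 IU each of human FSH and LH made by recombinant means, once estradiol reached 100 to 120 pg/ml. There were 6 follicles taken at 0 h without human chorionic gonadotropin (hCG, which acts as the ovulatory stimulus). After 1000 IU of recombinant hCG, 4 follicles each were taken at 12 h and 24 h, and at 36 h 4 unruptured and 4 ruptured ones. Ages were not stated, nor whether each follicle came from a separate animal, so p-values reflect only how far these samples differ among themselves, which may be technical. Most descriptions name the tissue a developing corpus luteum, while the titles speak of ovulatory follicles. The ruptured follicles carry replicate numbers 5 to 8 in the labels.

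Intensities are given as log2, so that a difference of 1 stands for 2-fold. Each gene is given by its probe set with the highest mean over the 22 arrays, and levels of different genes are not compared, since each probe has its own brightness. Of the 85 genes, 32 had a mean above the median of all probe sets (4.63) and 53 below it, where the size of a change is uncertain. Each array is a whole follicle with granulosa, theca, vessel and stromal cells, so fewer cells of a type and less RNA per cell cannot be told apart. Markers of the labelled tissue were present. The summed intensity of 10 granulosa markers was 13600 to 24000 at 0 h, 8460 to 19900 at 12 h, 7010 to 9170 at 24 h, 6670 to 9660 in unruptured and 10500 to 15300 in ruptured follicles. That of 8 theca markers lay between 15800 and 19900 in every group, a sum carried by the brightest of them. Of the granulosa markers, 4 fell at 12 h and none rose. Of the theca markers, 3 fell and 1 rose at 12 h, and again 3 fell and 1 rose from 0 h to ruptured follicles. CYP17A1, needed for androgen synthesis, fell by 1.89 and then by 4.81 from its 0 h level (limma, adjusted p = 0.00326 and 1.78e-07), and STAR was the gene that rose. The part of such shifts in the results below was not tested.

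A moderated F test (limma, adjusted p under 0.05 over all probe sets) found a difference between the 5 groups for 12 of the 85 genes, 14.1%, where 20.1% of all probe sets and 29% of all single-symbol genes passed. Among the 32 brighter junction genes 9 passed, 28.1%, where 39.7% of equally filtered genes did. The 12 were CDH1, CDH11, CDH26, CLDN2, CLDN23, CTNNA1, GJA5, PCDH18, PCDH7, PCDHA5, PCDHB5 and TJP1. CLDN10, CLDN15, CDH17, CTNND2, GJA4 and PKP4 passed in a single comparison of groups but not in the F test, and PCDHB5 the reverse. The remaining 67 genes passed in none of these tests by their brightest probe set. PCDH11X is among them, but a dimmer probe set of it (mean 6.91) passed in the F test (limma, adjusted p = 0.0362). That probe set was called lower at 12 h (-0.99) and from 0 h to ruptured follicles (-1.08; limma, adjusted p = 0.038 and 0.0149). The brightest had 0.09 and 0.36 there.

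**Figure D1:**
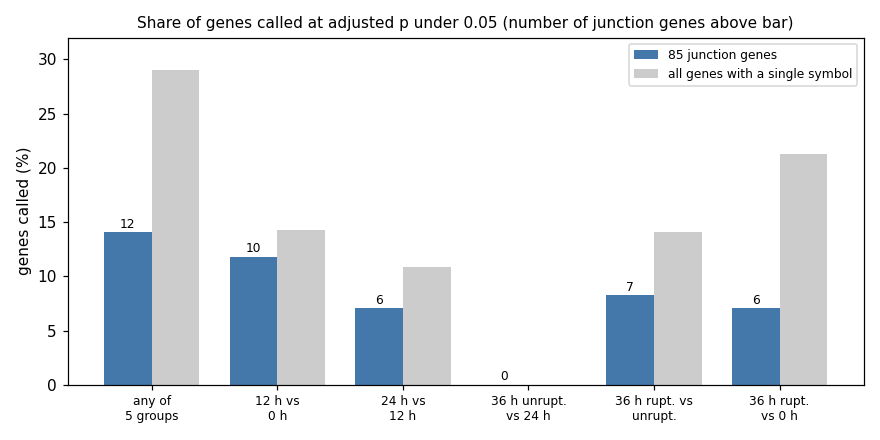
Share of genes called at an adjusted p under 0.05 (vertical axis, percent) in the F test over the 5 groups and in each comparison, for the 85 junction genes (blue, with their number above the bar) and for all 14132 single-symbol genes (grey). The blue bar is the lower of the pair in every test, for example 14.1% against 29% in the F test, and no junction gene was called between unruptured 36 h and 24 h. The sets were not matched for brightness. Above the median of all probe sets lay 32 of the 85 genes, but 9719 of the 14132.

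At 12 h against 0 h, which asks what followed the stimulus first, 8 junction genes fell and 2 rose. The falling genes were the cadherins CDH1, CDH11 and CDH26, the claudins CLDN10 and CLDN23, the catenin CTNND2, TJP1 and PCDH18. The rising ones were the connexin GJA5 and PCDHA5. The 10 genes are 11.8% of the 85, where 9.33% of all probe sets and 14.3% of all single-symbol genes were called, so the share was near the background. Among single-symbol genes 7.8% fell and 6.5% rose. The median log2 change of the 85 genes was -0.03, and of all single-symbol genes 0. RNA quality, read as the 3' minus 5' log2 signal of the array's controls, was not the same in all follicles. Those at 0 h averaged 0.328 with an SD of 0.041 and the 12 h ones 0.391 with an SD of 0.079, replicate 3 being highest at 0.506. With it as a covariate, PCDHA5 and CLDN10 were no longer called at 12 h (limma, adjusted p = 0.0653 and 0.0534).

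From 12 h to 24 h, 3 junction genes rose (CDH1, CDH11, CLDN23) and 3 fell (CLDN2, PCDHA5, CDH17). This was 7.06%, where 6.88% of all probe sets and 10.9% of single-symbol genes were called, 5.84% as higher and 5.02% as lower. CDH1, CDH11, CLDN23 and PCDHA5 were called in both steps, each in opposite directions, and the steps share the 12 h arrays. From 24 h to unruptured 36 h, limma called none of the 85 genes, where 0.00379% of all probe sets and 0.00708% of single-symbol genes were called. At an unadjusted p under 0.05 there were 5 genes, 5.88%, where 6.43% of single-symbol genes passed, and the smallest adjusted p among the 85 was 0.519.

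Follicles that had ruptured at 36 h differed from those that had not in 7 junction genes, 8.24%, where 9.82% of all probe sets and 14.1% of single-symbol genes were called. These are different follicles of the same hour, so lower after rupture means lower in ruptured than in unruptured follicles. CDH11, CTNNA1, TJP1, CLDN15, CLDN23 and PCDH18 were lower after rupture and PCDHA5 was higher. All 7 were among the 32 brighter genes, a share of 21.9%, where 19.6% of equally filtered genes were called. Lower calls made up 7.67% and higher calls 6.47% of single-symbol genes. The median change was -0.06 in the 85 and in all single-symbol genes. From 0 h to ruptured 36 h, 3 genes rose (PCDH7, GJA5, GJA4) and 3 fell (PCDH18, TJP1, PKP4), 7.06%, where 15.8% of all probe sets and 21.3% of single-symbol genes were called, 9.43% as higher and 11.8% as lower. All 6 were among the 32 brighter genes, a share of 18.8%, and no share of equally filtered genes is given for this comparison.

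Fitting only the arrays of the 2 groups compared, in place of all 22, ended many of these calls. At 12 h it ended those of PCDHA5, GJA5, CDH11, CTNND2 and CDH26 (limma, adjusted p 0.0577 to 0.13), and at 24 h those of all but CLDN23 (0.103 to 0.125). Between the 36 h groups it ended all but that of PCDHA5 (0.0615 to 0.218) and added calls for CDH3 and PCDH7. From 0 h to ruptured follicles it ended those of GJA4 and PKP4 (0.0887 and 0.108).

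**Figure D2:**
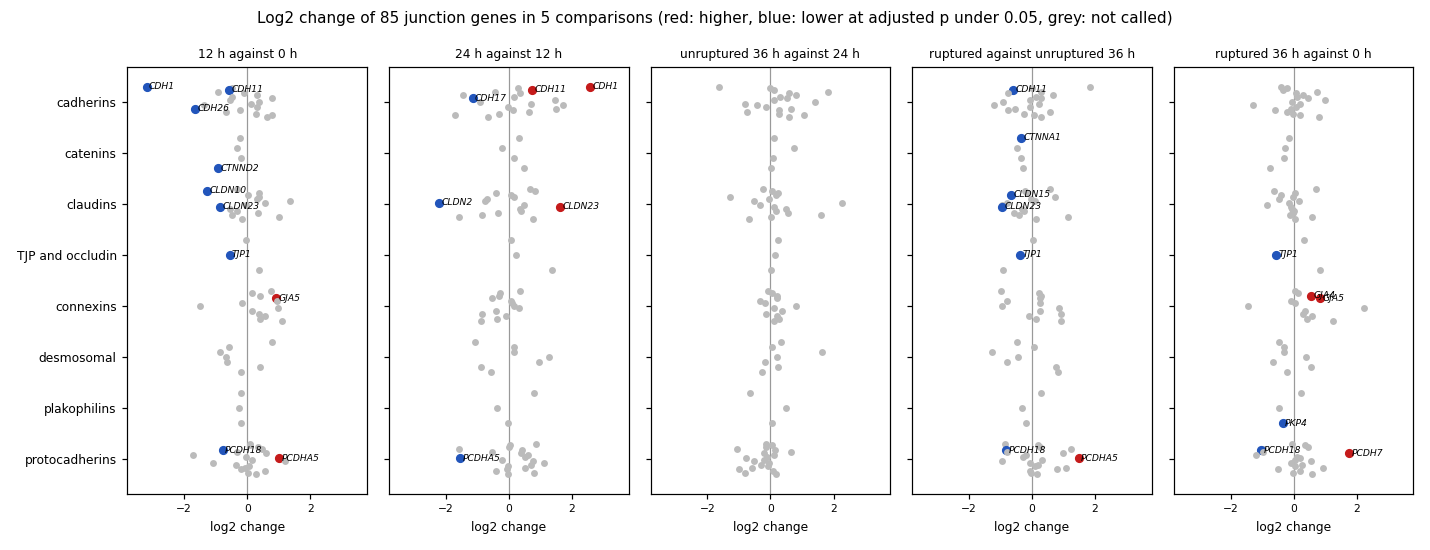
Log2 change (horizontal axis) of the 85 junction genes, by family (vertical axis), in the 5 comparisons, 1 point per gene. Genes called higher are red, genes called lower blue, both with their names, and the rest grey. At 12 h 8 of the 10 called genes lie left of 0, and after rupture 6 of 7.

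CDH11, a cadherin of mesenchymal and stromal cells, dropped at 12 h, returned by 24 h and was lower again after rupture. At 0 h its values were 9.08 to 9.53 with a median of 9.22. At 12 h they were 8.63, 8.74, 8.40 and 8.97, all below the lowest value at 0 h. The fall of 0.59 ± 0.15 (SE; limma, adjusted p = 0.0179) was followed by a rise of 0.75 ± 0.17 (adjusted p = 0.00924) to 9.15, 9.48, 9.54 and 9.58 at 24 h. Unruptured follicles had 9.80, 9.23, 9.45 and 9.73, and ruptured ones 8.87, 9.23, 8.94 and 8.71. These groups met at 9.23, and the change between them was -0.61 ± 0.17 (limma, adjusted p = 0.0231). A dimmer probe set of CDH11 also fell at 12 h (-0.65, limma, adjusted p = 0.0309), while the remaining one had -0.62 and was not called (adjusted p = 0.162). Neither was called for the rise to 24 h (0.49 and 0.86, limma, adjusted p = 0.17 and 0.0833) or between the 36 h groups (-0.62 and -0.66, adjusted p = 0.0597 and 0.171). From 0 h to ruptured follicles the dimmest CDH11 probe set was called lower (-0.69, limma, adjusted p = 0.0129), where the brightest was not (-0.33, adjusted p = 0.158).

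CDH1, the E-cadherin of epithelia, had the most negative change of the 85 genes at 12 h, at the dim end of the array. Its 0 h values were 2.72, 2.03, 2.69, 3.83, 3.47 and 3.91. At 12 h they were 0.47, -0.18, -0.06 and -0.55, below every 0 h follicle. The change was -3.19 ± 0.63 (SE; limma, adjusted p = 0.00329). With 16 added to each intensity before the logarithm, which damps dim values, it was -0.57 and still called (limma, adjusted p = 0.0181). At 24 h the values were 3.66, 1.89, 0.80 and 3.64, all above the 12 h follicles, a rise of 2.58 ± 0.69 (limma, adjusted p = 0.0299). Unruptured follicles ranged from -0.34 to 2.76 and ruptured ones from 1.37 to 3.39, and neither of the comparisons with them was called.

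Another pair of dim cadherins passed a single step each. CDH26 had 3.64 to 5.26 at 0 h and 3.63, 1.99, 3.70 and 1.06 at 12 h, so that the groups overlapped. Its change was -1.65 ± 0.46 (limma, adjusted p = 0.0277), -0.61 with 16 added, and its dimmer probe set was not called (adjusted p = 0.315). CDH17, a cadherin known from intestine and liver, had 5.14, 4.97, 5.21 and 4.15 at 12 h and 3.63, 3.95, 4.00 and 3.30 at 24 h, without overlap. It fell by 1.15 ± 0.31 (SE; limma, adjusted p = 0.0297), by 0.64 with 16 added.

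CDH3, P-cadherin, which lies next to CDH1 in the macaque genome, was bright in every follicle and not called in any comparison over all 22 arrays. Its values ran from 8.70 to 10.43 at 0 h, 9.31 to 9.84 at 12 h, 8.61 to 10.14 at 24 h, 9.94 to 10.02 in unruptured and 9.13 to 9.33 in ruptured follicles. The 36 h groups did not overlap, but the change of -0.75 ± 0.34 gave an adjusted p of 0.192 in limma. It was called there when only the arrays of these 2 groups were fitted.

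Among the catenins, CTNNA1, the alpha-catenin that joins cadherins to actin, was slightly lower after rupture. Unruptured follicles had 10.46, 10.39, 10.21 and 10.30 and ruptured ones 9.97, 9.98, 9.93 and 10.11, without overlap. The change was -0.34 ± 0.10 (SE; limma, adjusted p = 0.0435), and both other CTNNA1 probe sets had -0.23 and were not called (adjusted p = 0.126 and 0.253). From 12 h to 24 h the dimmest CTNNA1 probe set was called higher (0.32, limma, adjusted p = 0.0405), where the brightest was not (0.33, adjusted p = 0.0673). CTNND1, the p120 catenin that steadies cadherins at the membrane, had 8.68 to 8.89 in unruptured and 8.16 to 8.53 in ruptured follicles. The change of -0.36 ± 0.13 was not called (limma, adjusted p = 0.0763). CTNND2, a catenin best known from neurons and dim here, had 4.18 to 5.67 at 0 h and 3.87, 3.59, 3.98 and 3.96 at 12 h. It fell by 0.93 ± 0.26 (SE; limma, adjusted p = 0.0316), by 0.53 with 16 added.

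Many of these calls rest on a narrow margin. The CDH11 call at 12 h ended without 12 h replicate 1 or 3 (limma, highest adjusted p = 0.0672), and that between ruptured and unruptured follicles without unruptured replicate 1 or 4 or ruptured replicate 5 or 8 (highest 0.0814). For CDH1 at 24 h, removing replicate 2, 3 or 4 of the 12 h group, or 1 or 4 of the 24 h group, did so (highest 0.107), and with 16 added it was 0.45 (adjusted p = 0.119). The CDH26 call depended on replicates 1 and 6 of the 0 h and 2 and 4 of the 12 h group (highest 0.121). That of CDH17 depended on replicates 1, 2 and 3 at 12 h and 1 and 4 at 24 h (highest 0.0894). CTNND2 was not called without replicate 4 or 6 of the 0 h group or any at 12 h (highest 0.0963), nor CTNNA1 without unruptured replicate 1, 2 or 4 or ruptured replicate 5, 6 or 7 (highest 0.125).

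The tight junction scaffold TJP1 (ZO-1), which binds claudins and occludin to actin, fell at 12 h and was lower in ruptured follicles. At 0 h it was at 10.29, 10.18, 9.98, 9.99, 9.87 and 10.22. The 12 h follicles had 9.50, 9.46, 9.67 and 9.46, all lower, a change of -0.56 ± 0.11 (SE; limma, adjusted p = 0.00326). At 24 h the values were 9.58, 9.97, 9.74 and 9.78, and in unruptured follicles 9.87, 9.75, 10.08 and 10. Ruptured follicles had 9.65, 9.61, 9.48 and 9.40, below every unruptured and every 0 h follicle. Against 0 h the change was -0.55 ± 0.11 (limma, adjusted p = 0.00198) and against unruptured follicles -0.39 ± 0.12, close to the threshold (adjusted p = 0.0499). The dimmer TJP1 probe set gave -0.69 at 12 h (limma, adjusted p = 0.00522) and -0.53 from 0 h to ruptured follicles (adjusted p = 0.0179), and -0.36 between the 36 h groups (adjusted p = 0.19).

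CLDN23, a claudin close to the array's median level, went down, up and down again. The 0 h values were 4.42 to 4.96, with a median of 4.66. At 12 h they were 3.77, 3.96, 3.65 and 3.93, at 24 h 5.25, 5.56, 5.31 and 5.66, in unruptured follicles 5.31, 5.06, 5.56 and 6.28, and in ruptured ones 5.12, 4.31, 4.07 and 4.94. The 12 h group lay below and the 24 h group above every 0 h follicle, while a ruptured follicle overlapped with the unruptured ones. Changes were -0.86 ± 0.22 at 12 h (limma, adjusted p = 0.0176), 1.62 ± 0.24 from 12 h to 24 h, a 3.07-fold rise (adjusted p = 0.000607), and -0.94 ± 0.24 with rupture (adjusted p = 0.0165). With 16 added the first 2 were -0.47 and 0.98, both still called.

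Other claudins changed in 1 comparison each. CLDN10, which forms ion-selective channels, had 4.47 to 5.13 at 0 h and 3.51, 3.82, 3.53 and 3.88 at 12 h, without overlap, and fell by 1.27 ± 0.30 (SE; limma, adjusted p = 0.0117), by 0.70 with 16 added. CLDN2, a claudin of leaky, cation-selective tight junctions, had 3.86, 3.06, 4.64 and 3.69 at 12 h and 1.02, 1.98, 0.49 and 2.88 at 24 h. It fell by 2.22 ± 0.60 (SE; limma, adjusted p = 0.0309), by 0.65 with 16 added. CLDN15, which like CLDN2 lets cations pass, had 7.92, 7.90, 8.07 and 7.56 in unruptured and 7.38, 6.85, 7.43 and 7.12 in ruptured follicles. Without overlap between these groups, it was lower after rupture (-0.67 ± 0.17 SE; limma, adjusted p = 0.0178), and its dimmer probe set was not called (0.18, adjusted p = 0.84).

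Leaving out single arrays ended some of these calls too. TJP1 between ruptured and unruptured follicles lost its call without unruptured replicate 1, 3 or 4 or any ruptured replicate (limma, highest adjusted p = 0.133), CLDN23 at 12 h without 12 h replicate 3 (0.0519), and CLDN23 after rupture without unruptured replicate 4 or ruptured replicate 6 or 7 (highest 0.0615). The CLDN2 call depended on replicates 1, 3 and 4 at 12 h and 1, 2 and 3 at 24 h (highest 0.105). CLDN15 was not called without unruptured replicate 3 or ruptured replicate 6 (highest 0.062). The TJP1 calls at 12 h and from 0 h to ruptured follicles, the CLDN10 call and the CLDN23 rise stood with any 1 array left out.

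**Figure D3:**
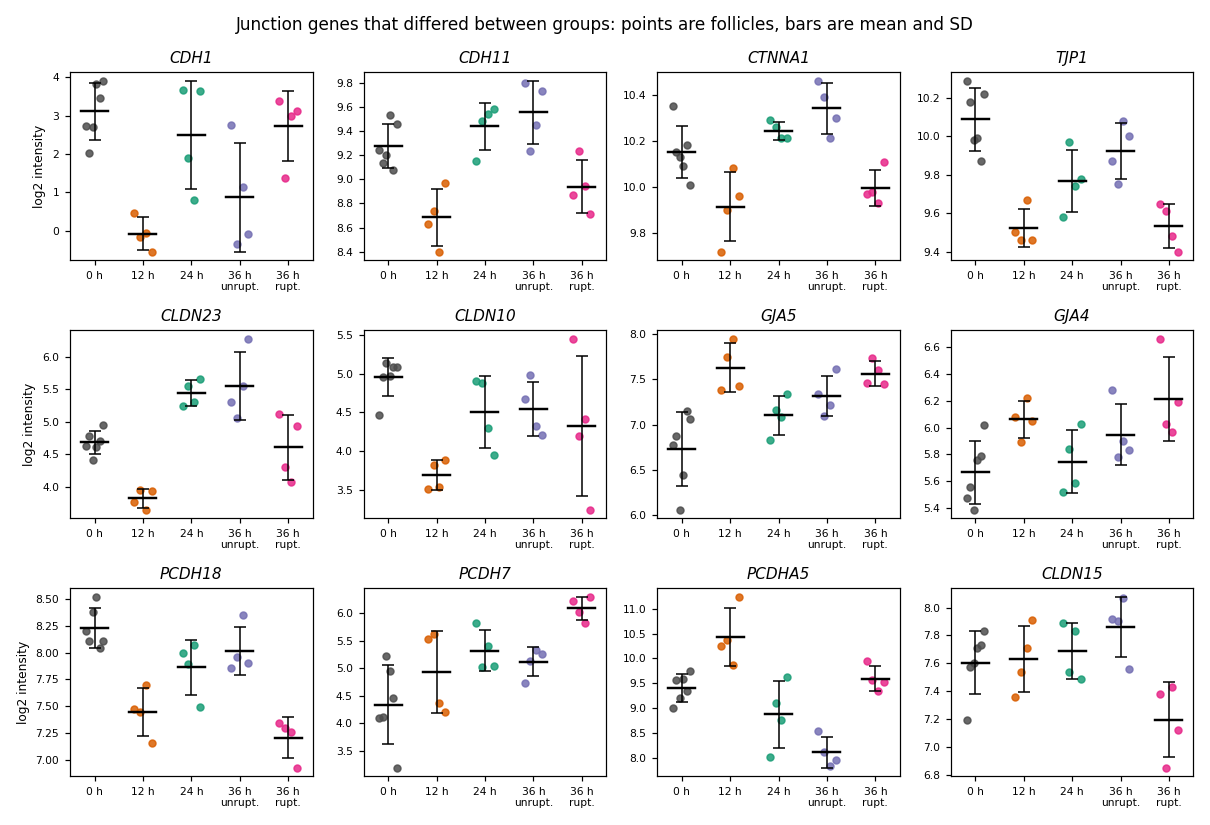
Log2 intensity (vertical axes) of 12 junction genes that differed in at least 1 comparison, in follicles at 0 h (6), 12 h, 24 h, unruptured and ruptured 36 h (4 each). Each point is a follicle, the wide bar the mean and the whiskers 1 SD. TJP1, PCDH18, CLDN10 and CDH1 are lower in every 12 h follicle than in any 0 h follicle, while GJA5 is higher in every one.

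The claudins of simple epithelia, CLDN1, CLDN3, CLDN4 and CLDN7, and occludin were not called in any comparison by their brightest probe set. CLDN4 ran from 4.85 to 7.36 at 0 h, from 5.29 to 5.77 at 12 h, from 5.36 to 6.56 at 24 h, from 5.80 to 6.56 in unruptured and from 5.46 to 6.51 in ruptured follicles. CLDN7 spread widely within groups, from 2.93 to 6.68 at 0 h and from 2.86 to 5.76 in ruptured follicles. CLDN1, a sealing claudin, had 6.50 to 7.56 at 0 h and 7.22 to 8.63 in ruptured follicles, and its change of 0.70 ± 0.32 was not called (limma, adjusted p = 0.165). The dimmer CLDN1 probe set (mean 6.08) was called higher there, by 1.08 (limma, adjusted p = 0.0363). OCLN stayed between 2.84 and 4.20 in all 22 follicles, below the median of all probe sets.

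The top values of CLDN4 and CLDN7 fell in the same follicles as those of EPCAM, an adhesion protein of epithelial cells and 1 of 9 measured markers of epithelium and ovarian surface. In all 5 groups the follicle with the highest EPCAM also had the highest CLDN4 and the highest CLDN7. At 0 h this was replicate 2, with EPCAM at 6.73, CLDN4 at 7.36 and CLDN7 at 6.68, where the next highest follicles had 5.42, 6.19 and 5.18. It was replicate 1 at 24 h (EPCAM 6.38, CLDN4 6.56, CLDN7 5.04), replicate 1 of the unruptured follicles (6.51, 6.56, 5.23), and ruptured replicate 5 (6.25, 6.51, 5.76). At 12 h it was replicate 4, but there the top EPCAM values were close (4.11 and 4.10). UPK1B, a surface epithelium marker, was highest in the same follicle in 3 of the 5 groups and CLDN3 in 1. Below the top follicle the order differed. At 24 h replicate 2 was second in EPCAM (4.55) but lowest in CLDN4 (5.36) and CLDN7 (1.93). The other markers followed in some groups only. At 0 h replicate 2 was the highest follicle for KRT7 (2.74), but not for KRT8, KRT18, KRT19, MSLN, UPK3B or WT1. At 24 h replicate 1 was the highest for KRT8, KRT18, KRT19, MSLN and UPK3B, but not for KRT7 or WT1. At 12 h replicate 4 was so for KRT7, KRT19, MSLN and UPK3B, but not for KRT8, KRT18 or WT1. Unruptured replicate 1 was highest for KRT19 (10.39) and shared the top KRT7 value (2.71). Ruptured replicate 5 was highest for none of these. EPCAM was picked out and the follicles compared after their values were seen, with no test. The summed intensity of the 9 measured epithelial markers was 1040 to 2060 at 0 h, 1900 to 2110 at 12 h, 1920 to 2610 at 24 h, 1730 to 2840 in unruptured and 1860 to 2910 in ruptured follicles. Its part in the claudin values was not tested.

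**Figure D4:**
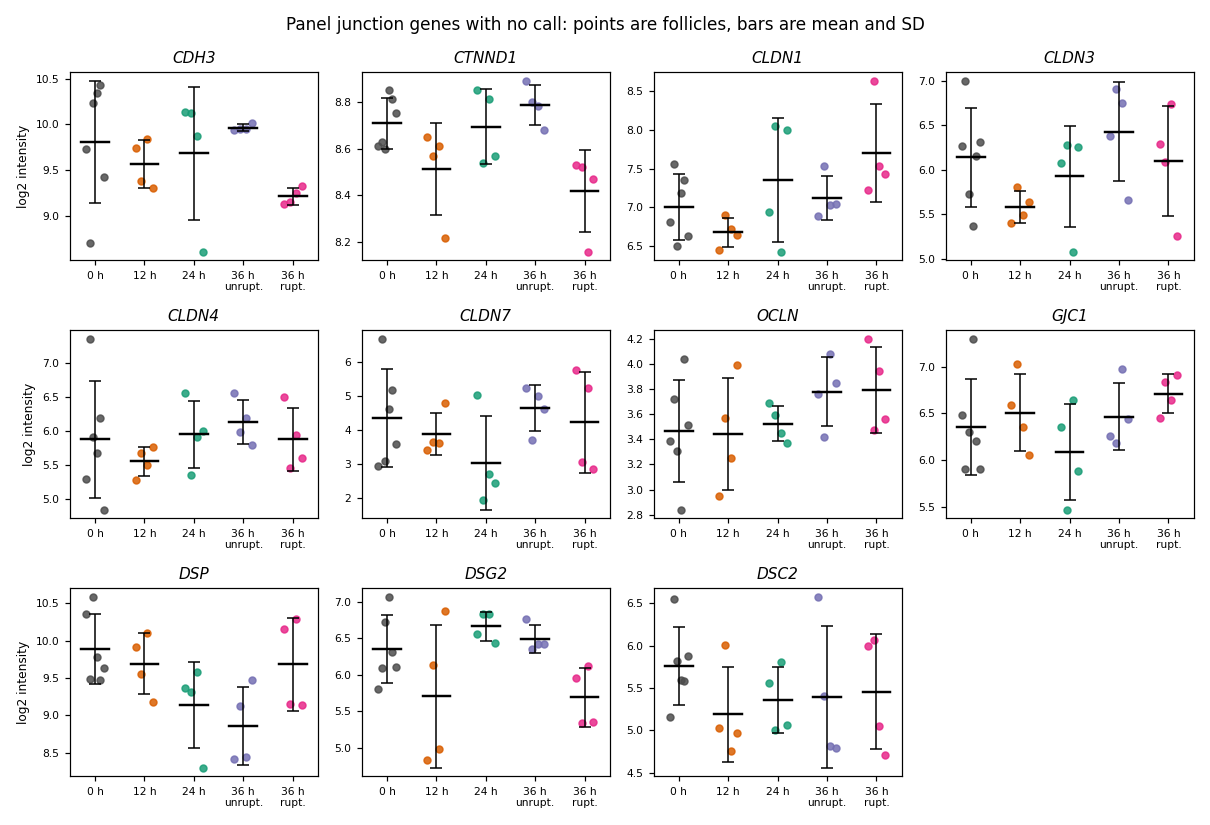
Log2 intensity (vertical axes) of 11 junction genes of a panel given whatever its result, none of them called in any comparison by its brightest probe set, in the same 5 groups of follicles (6 at 0 h, 4 in each other group). Each point is a follicle, the wide bar the mean and the whiskers 1 SD. CLDN7 spreads from 2.93 to 6.68 among the 0 h follicles, while CTNND1 stays between 8.60 and 8.85 there.

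GJA5 and GJA4, connexins of arterial endothelium, were the gap junction genes that rose, and GJA4 also couples the oocyte to its granulosa cells. GJA5 had 6.78, 6.87, 6.06, 6.44, 7.15 and 7.06 at 0 h and 7.38, 7.75, 7.95 and 7.43 at 12 h, all higher. It rose by 0.90 ± 0.19 (SE; limma, adjusted p = 0.00503). Its values were 6.83, 7.16, 7.08 and 7.34 at 24 h and 7.34, 7.10, 7.22 and 7.62 in unruptured follicles. Ruptured follicles had 7.46, 7.74, 7.60 and 7.45, again all above 0 h, with a change of 0.84 ± 0.19 (limma, adjusted p = 0.0046). The dimmer GJA5 probe set had 1.03 from 0 h to ruptured follicles (limma, adjusted p = 0.00548) and 0.71 at 12 h, not called (adjusted p = 0.0687).

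GJA4 had 5.39 to 6.02 at 0 h and 6.66, 6.03, 5.97 and 6.19 in ruptured follicles, which overlapped. The change was 0.55 ± 0.16 (SE; limma, adjusted p = 0.0241), and the call ended without 0 h replicate 1 or 3 or ruptured replicate 5 (highest adjusted p = 0.114). GJC1, a connexin of the vessel wall and heart, was not called, at 5.91 to 7.30 at 0 h and 6.45 to 6.91 in ruptured follicles. Of the 13 connexins, 1 rose at 12 h and 2 from 0 h to ruptured follicles, and none fell in any comparison. Over all single-symbol genes 6.5% and 9.43% were called higher in these comparisons, so the counts were near the background. The summed intensity of 12 endothelial markers was 1140 to 2270 at 0 h, 1600 to 2630 at 12 h and 2340 to 3400 in ruptured follicles. Of these markers 0 were called at 12 h (2 at an unadjusted p under 0.05), and 1, CDH5, rose from 0 h to ruptured follicles (0.89 ± 0.18, limma, adjusted p = 0.00187). At an unadjusted p under 0.05 there were 5 from 0 h to ruptured follicles, where 34.2% of single-symbol genes passed. The median change of the 12 markers was 0.32 at 12 h and 0.5 from 0 h to ruptured follicles. That of all single-symbol genes was 0 and -0.03. The part of these markers in the connexin changes was not tested.

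Limma called none of the 7 desmosomal genes in any comparison. At an unadjusted p under 0.05 there was 1 from 12 h to 24 h, there were 2 between the 36 h groups and 0 in the other comparisons, where 26.2% (12 h to 24 h) and 28.7% (36 h groups) of single-symbol genes passed. DSP, the plaque protein that binds intermediate filaments, was at 9.48 to 10.59 at 0 h, 9.18 to 10.10 at 12 h, 8.30 to 9.58 at 24 h, 8.41 to 9.47 in unruptured and 9.14 to 10.29 in ruptured follicles. Its change with rupture was 0.82 ± 0.36 (limma, adjusted p = 0.176). DSG2, the desmoglein of simple epithelia, had the opposite sign there by its brightest probe set. It was at 6.36 to 6.77 in unruptured and 5.34 to 6.12 in ruptured follicles, without overlap, and its change of -0.80 ± 0.36 was not called (limma, adjusted p = 0.193). The dimmer DSG2 probe sets had -0.15, 0.57 and 0.06 there, none called (limma, adjusted p = 0.802, 0.382 and 0.966). DSC2 overlapped in every comparison. JUP (plakoglobin), also of the desmosome plaque, is not among the 7 but on the list of further junction genes below. It fell by 0.47 ± 0.14 at 12 h (SE; limma, adjusted p = 0.0412) and rose by 0.68 ± 0.15 to 24 h (adjusted p = 0.0112). In ruptured follicles JUP was lower than in unruptured ones by 0.73 ± 0.15 (limma, adjusted p = 0.00491), and against 0 h it was not called. Its calls were not checked with single arrays left out.

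PKP4, a plakophilin-family protein that also binds cadherins, had 8.24, 8.27, 8.04, 8.32, 8.24 and 8.15 at 0 h and 7.87, 8.00, 7.61 and 7.97 in ruptured follicles. Ruptured follicles all lay lower, and the change was -0.35 ± 0.11 (SE; limma, adjusted p = 0.0319). Its dimmer probe set was not called (adjusted p = 0.189), and leaving out 0 h replicate 1, 2, 4 or 5 or ruptured replicate 5 or 7 ended the call (highest adjusted p = 0.132).

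PCDH18, a protocadherin of mesenchymal tissues, had the lowest adjusted p of the 85 genes at 12 h and in both comparisons with ruptured follicles. The 0 h follicles had 8.20, 8.11, 8.38, 8.52, 8.04 and 8.11. At 12 h the values were 7.48, 7.45, 7.70 and 7.16, all lower, a change of -0.78 ± 0.15 (SE; limma, adjusted p = 0.00253). They were 8.00, 7.89, 8.07 and 7.49 at 24 h and 7.86, 7.96, 8.35 and 7.90 in unruptured follicles. Ruptured follicles had 7.35, 7.30, 7.26 and 6.93, below every follicle of the 0 h and unruptured groups. The change was -0.81 ± 0.16 against unruptured follicles (limma, adjusted p = 0.0037) and -1.02 ± 0.15 against 0 h (adjusted p = 0.000114), a 2.03-fold lower level. Its dimmer probe set was called in the same 3 comparisons, with -0.67, -0.58 and -0.69 (limma, adjusted p = 0.00893, 0.0322 and 0.00396). The dimmer one was also called for a rise from 12 h to 24 h (0.63, limma, adjusted p = 0.0285), where the brightest was not (0.42, adjusted p = 0.15). No single array left out ended any of the 3 calls of the brightest probe set.

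PCDH7, a protocadherin, rose from 0 h to ruptured follicles. It had 4.09, 4.11, 5.23, 4.95, 4.46 and 3.19 at 0 h, 4.21 to 5.63 at 12 h, 5.02 to 5.82 at 24 h and 4.74 to 5.33 in unruptured follicles. Ruptured follicles had 6.22, 6.03, 5.83 and 6.30, above every follicle of all other groups. The change from 0 h was 1.75 ± 0.34, a 3.37-fold rise (SE; limma, adjusted p = 0.00147), and that from unruptured follicles, 0.97, was not called (adjusted p = 0.119). The latter was called with 16 added and when only the arrays of these 2 groups were fitted. A very dim second probe set (mean 1.95) had -1.06 from 0 h (limma, adjusted p = 0.407), and the mean of both probe sets gave 0.35 (adjusted p = 0.697).

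The probe set named PCDHA5 rose, fell and was higher again after rupture. Its values were 9.0 to 9.74 at 0 h, 10.24, 10.37, 9.86 and 11.24 at 12 h, and 8.03, 9.10, 8.76 and 9.63 at 24 h. Unruptured follicles had 8.54, 8.13, 7.83 and 7.96, and ruptured ones 9.94, 9.57, 9.34 and 9.52. The 12 h follicles lay above every 0 h and every 24 h follicle, and ruptured above unruptured ones. Changes were 1.02 ± 0.28 at 12 h (limma, adjusted p = 0.0252), -1.55 ± 0.30 to 24 h (adjusted p = 0.00444) and 1.48 ± 0.30 with rupture (adjusted p = 0.00412). The gene is 1 of the alpha protocadherins, which share their last exons, and none of the other 5 probe sets of PCDHA5, with means of 5.06 and below, was called, so which transcript was measured is uncertain. With the mean of all 6 probe sets, the changes were 0.04, -0.25 and 0.27 and none was called (limma, adjusted p = 0.957, 0.732 and 0.672). The 12 h call also depended on replicates 1 and 3 of the 0 h and 2 and 4 of the 12 h group (highest adjusted p = 0.111).

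Further genes of cell junctions, outside the families above, were read from a list of 60, of which 42 were measured. Of these, 3 rose and 5 fell at 12 h, 3 rose and 1 fell from 12 h to 24 h, 0 were called from 24 h to unruptured 36 h, 2 rose and 6 fell with rupture, and 4 rose and 6 fell from 0 h to ruptured follicles. Median log2 changes of the 42 were -0.11, 0.19, 0.04, -0.03 and 0.05 in that order, and those of all single-symbol genes 0, 0.02, 0.01, -0.06 and -0.03. Over all single-symbol genes 14.3%, 10.9%, 0.00708%, 14.1% and 21.3% were called in these comparisons. In the step with 0 calls, 3 of the 42 had an unadjusted p under 0.05.

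F11R (JAM-A), an adhesion molecule of tight junctions, was at 8.28 to 9.37 at 0 h, 9.82 to 10.38 at 12 h and 9.80 to 10.48 in ruptured follicles. It rose by 1.35 ± 0.20 at 12 h (SE; limma, adjusted p = 0.000338) and by 1.25 ± 0.20 from 0 h to ruptured follicles (adjusted p = 0.000253). The polarity scaffold PARD3 fell by 0.97 ± 0.25 at 12 h (limma, adjusted p = 0.0206) and rose by 1.08 ± 0.28 to 24 h (adjusted p = 0.0238). Without 12 h replicate 4 these were -0.61 and 0.71, neither called (limma, adjusted p = 0.0674 and 0.0592), and the rise also lost its call without 24 h replicate 1, 2 or 3 (highest 0.0839). MAGI3, another junction scaffold, fell by 0.72 ± 0.14 at 12 h (limma, adjusted p = 0.00244). From 12 h to 24 h it rose by 0.79 ± 0.15 (limma, adjusted p = 0.00376), to a mean of 8, where 0 h had 7.94. It was lower after rupture by 0.51 ± 0.15 (limma, adjusted p = 0.038). With only the arrays of the 2 groups fitted, the call of the MAGI3 rise (limma, adjusted p = 0.079) ended. So did those of PARD3 in both steps (0.102 and 0.236).

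The giant cadherins of the FAT and Dachsous families, which bind each other across cells, changed in both directions. FAT1 was at 9.92 to 11.35 at 0 h, 8.63 to 9.43 at 12 h and 8.58 to 9.34 in ruptured follicles, a fall of 1.54 ± 0.25 at 12 h (SE; limma, adjusted p = 0.000739) and of 1.73 ± 0.25 from 0 h to ruptured follicles (adjusted p = 0.000109). DCHS1 was at 7.99 to 8.20 at 0 h, 8.24 to 8.84 at 12 h, 7.82 to 8.11 at 24 h, 7.91 to 8.19 in unruptured and 8.90 to 9.10 in ruptured follicles. It rose by 0.51 ± 0.12 at 12 h (limma, adjusted p = 0.00942), fell by 0.56 ± 0.13 to 24 h (adjusted p = 0.0116) and was higher by 0.92 ± 0.13 after rupture (adjusted p = 0.000224). DCHS2 went the other way between the 36 h groups, at 5.07 to 6.02 in unruptured and 2.63 to 4.27 in ruptured follicles. The change was -2.17 ± 0.40 (limma, adjusted p = 0.00192), -1.24 with 16 added. FAT4 was lower after rupture by -1.09 ± 0.27 (limma, adjusted p = 0.013), a call that ended without unruptured replicate 1 (adjusted p = 0.0537). With the mean of all probe sets per gene, the FAT1, F11R and DCHS1 changes were no longer called, at -0.31, 0.76 and 0.23 at 12 h (limma, adjusted p = 0.471, 0.142 and 0.239). With only the arrays of the 2 groups, DCHS1 lost its calls at 12 h and 24 h (limma, adjusted p = 0.0723 and 0.172) and FAT4 its own with rupture (0.103).

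Of the repressors of E-cadherin on the list, SNAI1 had 1.36 to 4.48 at 0 h and 4.69 to 5.89 in ruptured follicles. It rose by 2.33 ± 0.61 (SE; limma, adjusted p = 0.0129), by 1.14 with 16 added. ZEB2 had 8.49 to 9.0 in unruptured and 9.09 to 9.27 in ruptured follicles and was higher after rupture by 0.42 ± 0.11 (limma, adjusted p = 0.0206). The ZEB2 call ended without unruptured replicate 1 or ruptured replicate 5 or 6 (highest adjusted p = 0.081) and with only the arrays of the 2 groups (0.201). ZEB1, named here after its values were seen, went the other way from 0 h to ruptured follicles, from 7.07 to 7.59 down to 5.89 to 6.64, a change of -0.91 ± 0.18 (limma, adjusted p = 0.00139). TWIST1 and TWIST2 were not called in any comparison. ZEB2 was also higher from 0 h to ruptured follicles (0.44, limma, adjusted p = 0.00554). At 12 h, where CDH1 fell, ZEB2 was called higher (0.43, limma, adjusted p = 0.0114). SNAI1 (1.46) and ZEB1 (0.11) were not called there (limma, adjusted p = 0.161 and 0.784). These values were picked out after they were seen, and a link to CDH1 was not tested. From 0 h to ruptured follicles and with rupture, CDH1 itself was not called. Its log2 levels were 3.11 ± 0.75 (SD, n = 6) at 0 h, 0.87 ± 1.42 (n = 4) in unruptured and 2.72 ± 0.91 (n = 4) in ruptured follicles.

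Genes of the same family often lie side by side in the macaque genome. Of the 82 junction genes placed by the RefSeq gene table, 23 stood in 13 adjacent pairs. CDH1 lies beside CDH3 and CDH11 beside CDH8. CDH1 and CDH11 fell at 12 h and their neighbours were not called, though CDH8 was dim (mean 2.36).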

How the data were processed

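RNA of 22 follicles was measured on Affymetrix rhesus arrays. The deposited values are intensities, made with RMA per the submitters' processing notes (version not given in the sources used here). They ran from 0.0361 to 15137, a linear scale, so log2 of the deposited intensities was taken here, as planned. No detection call or scan batch was used here. Gene names came from the platform annotation, which gave 24956 probe sets 1 symbol, 361 several and 27449 none. Of the 85 genes, 82 matched the RefSeq table of another build, used for names and neighbours only.

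All 22 arrays entered a linear model of 5 group means (limma 3.58.1, lmFit and eBayes, R 4.3.3). Tests were two-sided, with Benjamini-Hochberg adjustment over 52766 probe sets (99 controls left out), called at an adjusted p under 0.05. On simulated data, 2-fold changes were recovered in 63% (12 h against 0 h) and 57% (24 h against 12 h). The other rates were 51% (unruptured 36 h against 24 h), 52% (ruptured against unruptured) and 59% (ruptured against 0 h). The changed probe sets were all drawn from those above the median of all probe sets, and the simulated noise was normal and independent. No rate was obtained for probe sets below that median. The rates therefore do not describe the 53 junction genes that lie there. Named were the called genes with the largest changes (up to 8 per direction and comparison), a panel of 25 junction genes whatever their result, and up to 2 called list genes per direction and comparison. The genes and lists were chosen with earlier results of these data known. EPCAM, UPK1B, ZEB1, CYP17A1 and JUP were picked out after their values were seen. Alternatives were quantile scaling, 16 added before log2, array weights, an RNA quality covariate (3' minus 5' signal), the mean of all probe sets of a gene, a filter on dim probe sets, a replicate block, only the arrays of the 2 groups, and each array left out in turn.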

Additional observations from a re-analysis of the deposited data

Results flagged for a closer look

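Of 145 gene and group pairs (29 genes in 5 groups), 7 held a follicle whose value stood far from the rest of its group by Dixon's test, where chance gives about 1 in 20. CLDN10 was at 4.47 in 0 h replicate 1, where the other follicles had 4.96 to 5.13. CLDN2 was at 2.79 in unruptured replicate 1 (others 4.20 to 4.25) and at 1.67 in ruptured replicate 8 (others 3.43 to 3.67). CLDN3 was at 5.08 in 24 h replicate 3 (others 6.08 to 6.28). CLDN7 was at 4.79 in 12 h replicate 4 (others 3.42 to 3.65). CTNND1 was at 8.16 in ruptured replicate 7 (others 8.47 to 8.53). DSG2 was at 6.77 in unruptured replicate 1 (others 6.36 to 6.42).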

How the results depend on the processing

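All 44 named changes kept their sign under every alternative run, but 15 of the 29 changes of junction genes lost their call when some single array was left out, and 4 kept it throughout. The number of junction genes called in the F test was 12, and 6 with the mean of all probe sets of a gene. For 12 h against 0 h it was 10, and 5 with only the arrays of the 2 groups. For 24 h against 12 h it was 6, and 1 with only those arrays. For ruptured against unruptured follicles it was 7, and 3 with the mean of all probe sets and 3 with only those arrays, of which 1, PCDHA5, was among the 7 and CDH3 and PCDH7 were added. Fits of only 2 groups have fewer arrays to estimate the spread. With each array left out, counts ran from 9 to 14 (F test), 7 to 10, 3 to 7, 0 to 0, 3 to 6 and 5 to 7 (the comparisons in the order of the text). The count was 3 without 24 h replicate 1 in the second, and in the fourth 3 without unruptured replicate 4, 4 without ruptured replicate 5, 3 without replicate 6 and 4 without replicate 7. The RNA quality covariate ended the calls of CLDN10 and PCDHA5 at 12 h, CDH1, CLDN2 and CDH17 at 24 h, and TJP1 and CTNNA1 with rupture (limma, adjusted p = 0.0534, 0.0653, 0.0735, 0.0793, 0.124, 0.0556 and 0.0535). Same-numbered follicles did not deviate together over all probe sets (correlations -0.02 to 0.06 over 14 pairs). Such a correlation cannot show a difference between animals confined to few genes, so it does not settle whether follicles shared an animal. The numbers were treated as names. With the replicate block the counts were 6 in the F test, 6 for 12 h against 0 h and 0 for ruptured 36 h against 0 h, where the groups share few numbers. Ruptured and unruptured follicles share none, so this fit was left out for that comparison. Dim probe sets and 4 to 6 arrays per group limit the precision.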
